A study of Rattus norvegicus with 20 samples.

Results

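The macrophage markers C1qa, C1qb, C1qc, Cd68, Cd163, Csf1r, Marco, Clec4f, Vsig4 and Cd5l were examined in the livers of male Harlan Sprague Dawley rats given triphenyl phosphate, an organophosphate added to plastics to soften them and to retard flames. The 10 genes are a named list of markers of these cells, put together with earlier results of these data known. Probe sets named for them were found for 8 of the 10, with 9 probe sets among the 14217 genes analysed (2 for Cd5l, and 1 for each of the other 7). Marco, a scavenger receptor, and Vsig4, a receptor for complement fragments, had no named probe set in the annotation used and were not analysed here. The compound was given by gavage in corn oil on 4 days, and left-lobe liver was taken on day 5. Affymetrix arrays covered 6 groups: corn oil alone (vehicle, 0 mg/kg, 5 arrays) and 55, 110, 220, 440 and 881 mg/kg triphenyl phosphate (3 arrays each). The study asked how the liver transcriptome moves with dose over a short exposure. The labels state no age, and all groups shared strain, sex, vehicle and route.

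Kupffer cells are the resident macrophages of the liver. They line the sinusoids, take up particles, old red cells and bacteria from portal blood, and depend for survival on CSF1R, the receptor for the growth factors CSF1 and IL34. They are also a main source of C1q, the recognition part of the classical complement pathway, whose 3 chains are encoded by C1qa, C1qb and C1qc. Clec4f, a C-type lectin, marks Kupffer cells closely in rodents, whereas Cd68, a lysosomal glycoprotein, and Csf1r are shared by most macrophages and monocytes.

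Promoters of the members are shown because the genes were lower together at the top doses and PU.1 and MAF factors are known regulators of macrophage genes. RefSeq sequences (rat GRCr8, 250 bases before to 50 bases after the annotated gene start, on the strand given) were available for 9 of the 10 members; C1qc had no entry. GAGGAAG, a PU.1 type element (PU.1, encoded by Spi1, is a transcription factor of myeloid cells), and TGCTGAC, part of the element bound by MAF factors, were searched on both strands. GAGGAAG lies in the windows of Cd68, Csf1r, Marco and Cd5l, and in 12.4% of all 33469 promoters. TGCTGAC lies in that of C1qa, and in 4.44% of all promoters. The windows of C1qb, Cd163, Clec4f and Vsig4 hold neither string, which says only that these letters are not in these bases. C1qb, C1qc and C1qa are neighbours on chromosome 5. The windows of 4 measured members with a match are printed 5′ to 3′, with the matching element in capitals (CTTCCTC is GAGGAAG on the opposite strand).
C1qa (chr5:154419884-154420183, minus strand): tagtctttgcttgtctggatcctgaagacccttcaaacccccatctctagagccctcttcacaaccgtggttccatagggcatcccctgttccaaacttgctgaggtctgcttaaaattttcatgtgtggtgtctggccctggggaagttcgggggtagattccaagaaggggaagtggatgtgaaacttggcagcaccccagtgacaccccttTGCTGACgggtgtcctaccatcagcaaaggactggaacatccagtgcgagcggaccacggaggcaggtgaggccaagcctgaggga
Cd68 (chr10:54882392-54882691, minus strand): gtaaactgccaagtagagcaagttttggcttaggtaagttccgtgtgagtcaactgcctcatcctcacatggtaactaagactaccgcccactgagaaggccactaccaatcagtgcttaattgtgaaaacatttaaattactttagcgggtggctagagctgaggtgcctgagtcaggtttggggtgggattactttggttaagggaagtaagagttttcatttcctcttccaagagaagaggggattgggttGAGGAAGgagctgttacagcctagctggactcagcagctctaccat
Csf1r (chr18:56834129-56834428, plus strand): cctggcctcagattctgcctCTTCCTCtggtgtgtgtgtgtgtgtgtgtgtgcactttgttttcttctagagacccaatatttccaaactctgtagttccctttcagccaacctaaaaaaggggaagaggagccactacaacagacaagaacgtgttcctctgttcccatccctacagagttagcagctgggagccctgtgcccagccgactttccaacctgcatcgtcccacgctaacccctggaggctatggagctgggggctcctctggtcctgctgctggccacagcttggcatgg
Cd5l (chr2:175088665-175088964, plus strand): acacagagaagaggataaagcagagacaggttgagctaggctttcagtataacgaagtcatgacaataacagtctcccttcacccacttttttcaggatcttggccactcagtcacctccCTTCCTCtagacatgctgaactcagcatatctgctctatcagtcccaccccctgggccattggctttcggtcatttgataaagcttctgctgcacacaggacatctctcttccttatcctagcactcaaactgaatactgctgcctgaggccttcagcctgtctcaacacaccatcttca

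Expression values are log2 units as deposited, so a difference of 1 is a doubling. Array medians lay between 6.31 and 6.40. One array, 881 mg/kg replicate 2, stood apart: the Gapdh control probe sets read 5.24 higher at the 3′ than at the 5′ end there, against 0.81 to 1.64 on all other arrays, beta-actin 3.47 against 1.67 to 2.72, and its median correlation with the others was 0.980 against 0.990 to 0.994. The members' changes and the counts at 881 mg/kg are therefore given with and without it. The treatment protocol in the labels describes 5 groups of 3 rats, whereas 6 groups are given here and vehicle has 5 arrays. The labels do not tie arrays to separate animals, so the p-values rest on the spread among these arrays, part of which may be technical. Differences were tested with limma over all genes, adjusted by Benjamini-Hochberg, and called at an adjusted p under 0.05; "fell" and "rose" are used for called genes. Bulk tissue was measured, so fewer macrophages and less RNA per macrophage cannot be told apart.

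All 8 measured markers were lower in the dosed livers at the top doses, and 7 of the 8 fell at 881 mg/kg (6.73% of all genes fell in that comparison, and 12.7% rose). The levels at 881 mg/kg were between 45.8% (C1qb) and 67.4% (Cd68) of the vehicle level, and the summed linear signal of the 8 was 5839 to 9479 on 881 mg/kg arrays and 10498 to 14310 on vehicle arrays. Without 881 mg/kg replicate 2 the same comparison called 3 of the 8, C1qa, Clec4f and Cd163 (3.93% of all genes fell there), and the median change of the members was -0.70, against -0.77 with all arrays. Without 881 mg/kg replicate 3 it called 4, C1qa, C1qb, C1qc and Clec4f (5.95% of all genes). The trend over dose steps called 8 of the 8, with all arrays and without 881 mg/kg replicate 2 (8.81% of all genes and 7.19%).

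**Figure D1:**
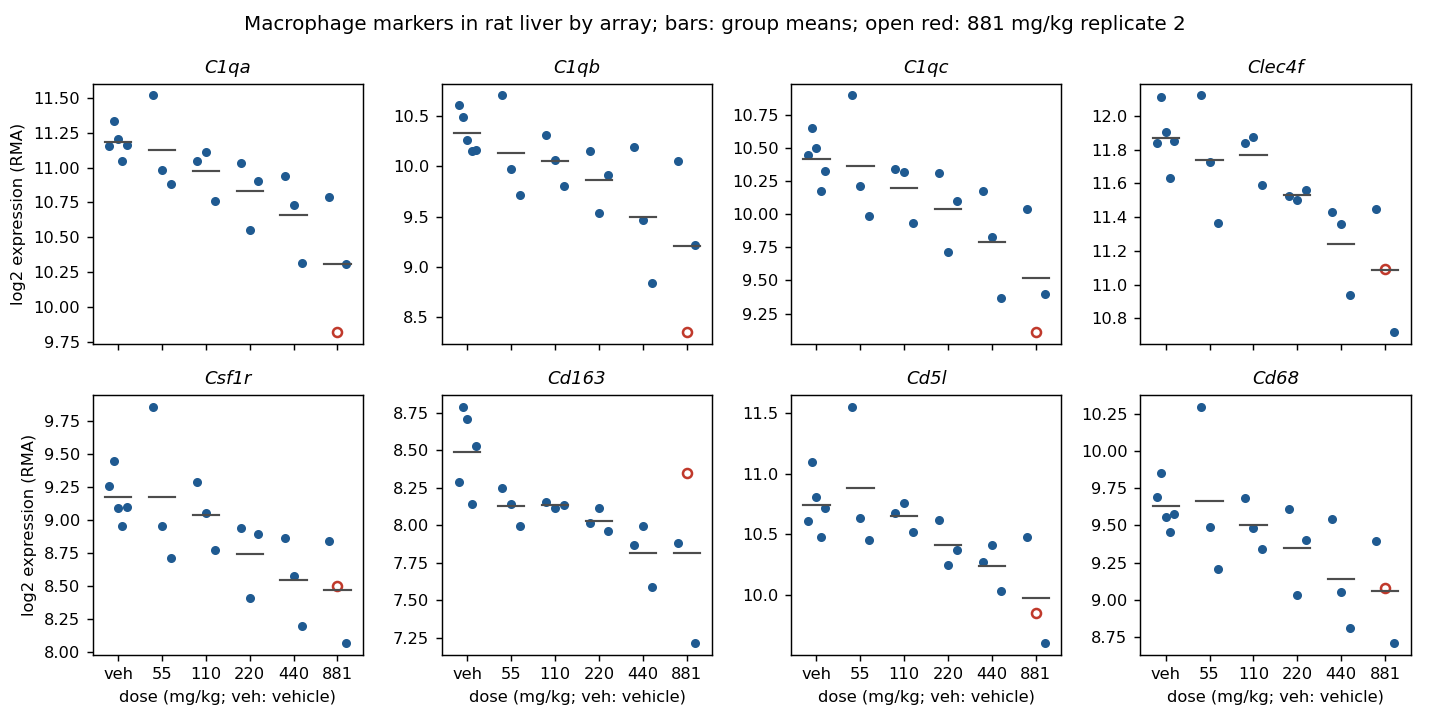
Log2 expression of the 8 measured markers on each of the 20 arrays (points) by dose, with bars at the group means; panels have their own vertical scale. The open red point is 881 mg/kg replicate 2, which is the lowest of all arrays for C1qa, C1qb and C1qc and within the vehicle range for Cd163.

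The 3 chains of C1q fell at 881 mg/kg, and only C1qa did so without replicate 2. C1qa, the A chain, read 11.16, 11.21, 11.16, 11.34 and 11.05 on the vehicle arrays, 11.52, 10.98 and 10.88 at 55, 11.05, 11.11 and 10.76 at 110, 11.03, 10.55 and 10.90 at 220, 10.94, 10.73 and 10.31 at 440, and 10.79, 9.82 and 10.31 at 881 mg/kg. All arrays at 220, 440 and 881 mg/kg lay below all vehicle arrays. C1qa fell at 881 mg/kg by 0.88 ± 0.19 (log2, SE), with means of 10.31 ± 0.48 at 881 mg/kg and 11.18 ± 0.10 in vehicle livers (SD, n = 3 and 5; limma adjusted p = 0.00311). It also fell without replicate 2, by 0.63 (adjusted p = 0.0325).

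C1qb, the B chain, had the widest spread within groups of the members and, with all arrays, the largest change at 881 mg/kg (without replicate 2 that was Cd163). Its values were 10.61, 10.26, 10.17, 10.49 and 10.16 on vehicle arrays, 10.71, 9.98 and 9.72 at 55, 10.31, 10.06 and 9.80 at 110, 10.15, 9.54 and 9.92 at 220, 10.19, 9.47 and 8.84 at 440, and 10.05, 8.36 and 9.22 at 881 mg/kg. The 881 mg/kg arrays lay below all vehicle arrays, and 1 array at 440 mg/kg lay among them. C1qb fell at 881 mg/kg by 1.13 ± 0.31 (limma adjusted p = 0.0166). Without 881 mg/kg replicate 2, where it was lowest, its change was -0.70 and the adjusted p 0.152, and with array weights -0.68 and 0.0917.

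C1qc, the C chain, read 10.45, 10.50, 10.32, 10.65 and 10.17 on vehicle arrays, 10.90, 10.22 and 9.99 at 55, 10.34, 10.32 and 9.93 at 110, 10.31, 9.72 and 10.10 at 220, 10.18, 9.83 and 9.37 at 440, and 10.04, 9.11 and 9.40 at 881 mg/kg. The highest 440 mg/kg array touched the lowest vehicle array, and the 881 mg/kg arrays were all below. C1qc fell at 881 mg/kg by 0.90 ± 0.22 (limma adjusted p = 0.00813). Without replicate 2 the change was -0.70 with an adjusted p of 0.0689. C1qa, C1qb and C1qc were the only members whose group mean was lower at every step from vehicle to 881 mg/kg, a pattern found in 1.41% of all genes. Without 881 mg/kg replicate 2 it held for C1qa and C1qc (1.01% of all genes) and not for C1qb, whose mean was then higher at 881 than at 440 mg/kg by 0.14.

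Clec4f, the lectin that marks Kupffer cells, had means of 11.09 ± 0.37 at 881 mg/kg and 11.87 ± 0.17 in vehicle livers (SD, n = 3 and 5). Its arrays read 11.84, 11.90, 11.85, 12.11 and 11.63 in vehicle livers, 12.12, 11.72 and 11.36 at 55, 11.84, 11.87 and 11.59 at 110, 11.53, 11.50 and 11.56 at 220, 11.43, 11.36 and 10.94 at 440, and 11.45, 11.09 and 10.72 at 881 mg/kg. Every array at 220 mg/kg and above was below every vehicle array. Clec4f fell at 881 mg/kg by 0.78 ± 0.16 (limma adjusted p = 0.00282), and by 0.78 without replicate 2 (adjusted p = 0.0122). It fell at 440 mg/kg by 0.63 ± 0.16 (adjusted p = 0.0185).

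Csf1r, the receptor on which Kupffer cells depend, read 9.26, 9.09, 9.10, 9.45 and 8.96 on vehicle arrays, 9.86, 8.95 and 8.72 at 55, 9.29, 9.05 and 8.77 at 110, 8.94, 8.41 and 8.89 at 220, 8.86, 8.58 and 8.20 at 440, and 8.84, 8.50 and 8.07 at 881 mg/kg. The arrays at 220 mg/kg and above did not overlap with vehicle. Csf1r fell at 881 mg/kg by 0.70 ± 0.23 (limma adjusted p = 0.0352). The call did not hold without 881 mg/kg replicate 2 (change -0.72, adjusted p = 0.0891) or without replicate 3 (change -0.50, adjusted p = 0.164). It was also lost without vehicle replicate 1, 2 or 4 (changes of -0.68, -0.72 and -0.63, limma adjusted p 0.0635, 0.0505 and 0.0772), with array weights (-0.62, adjusted p = 0.0555) and with the beta-actin 3′ minus 5′ difference as a covariate (-0.58, adjusted p = 0.103).

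Cd163, the scavenger receptor for haemoglobin bound to haptoglobin, had another pattern over the arrays. Its values were 8.29, 8.70, 8.53, 8.79 and 8.14 on vehicle arrays, 8.25, 8.14 and 7.99 at 55, 8.15, 8.12 and 8.13 at 110, 8.01, 8.11 and 7.96 at 220, 7.86, 7.996 and 7.59 at 440, and 7.88, 8.34 and 7.21 at 881 mg/kg. Replicate 2 of 881 mg/kg lay inside the vehicle range, while the other 7 markers lay below all vehicle arrays there. Cd163 fell at 881 mg/kg by 0.68 ± 0.18 (limma adjusted p = 0.0139) and by 0.94 without replicate 2 (adjusted p = 0.00145). It was not called without replicate 3 (change -0.38, adjusted p = 0.0999) or with only the groups compared in the fit (change -0.68, adjusted p = 0.0807). It fell at 440 mg/kg by 0.67 ± 0.18 (adjusted p = 0.0218).

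Cd5l, a secreted protein of macrophages that inhibits apoptosis, read 10.61, 10.81, 10.72, 11.10 and 10.48 on vehicle arrays, 11.55, 10.63 and 10.45 at 55, 10.68, 10.76 and 10.52 at 110, 10.62, 10.25 and 10.37 at 220, 10.27, 10.41 and 10.04 at 440, and 10.48, 9.85 and 9.61 at 881 mg/kg. Replicate 1 of 881 mg/kg lay at the lowest vehicle array, and the 440 mg/kg arrays were all below it. Cd5l fell at 881 mg/kg by 0.76 ± 0.21 (limma adjusted p = 0.0167). The call was lost without replicate 2 (change -0.70, adjusted p = 0.0747) and without replicate 3 (change -0.57, adjusted p = 0.0900), and with array weights it was -0.62 (adjusted p = 0.0501). Its second probe set, tested over all probe sets, changed by -1.02 ± 0.34 (adjusted p = 0.0569), and its trend was called (adjusted p = 0.0180). That probe set read 5.25 to 5.93 on vehicle arrays, and 5.40, 3.82 and 4.62 at 881 mg/kg. These values lie below the array medians, and the lowest is on replicate 2. The second probe set was not tested without replicate 2.

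Cd68 was the member that did not pass at 881 mg/kg. It read 9.69, 9.56, 9.58, 9.86 and 9.46 on vehicle arrays, 10.30, 9.49 and 9.21 at 55, 9.69, 9.48 and 9.34 at 110, 9.61, 9.03 and 9.40 at 220, 9.54, 9.05 and 8.81 at 440, and 9.39, 9.08 and 8.71 at 881 mg/kg. All 881 mg/kg arrays were below all vehicle arrays, yet the difference of -0.57 ± 0.21 had a limma adjusted p of 0.0652. The 95% interval of that change was -1.01 to -0.13. Without 881 mg/kg replicate 2 the change of Cd68 was -0.58, and it was not called there either.

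**Figure D2:**
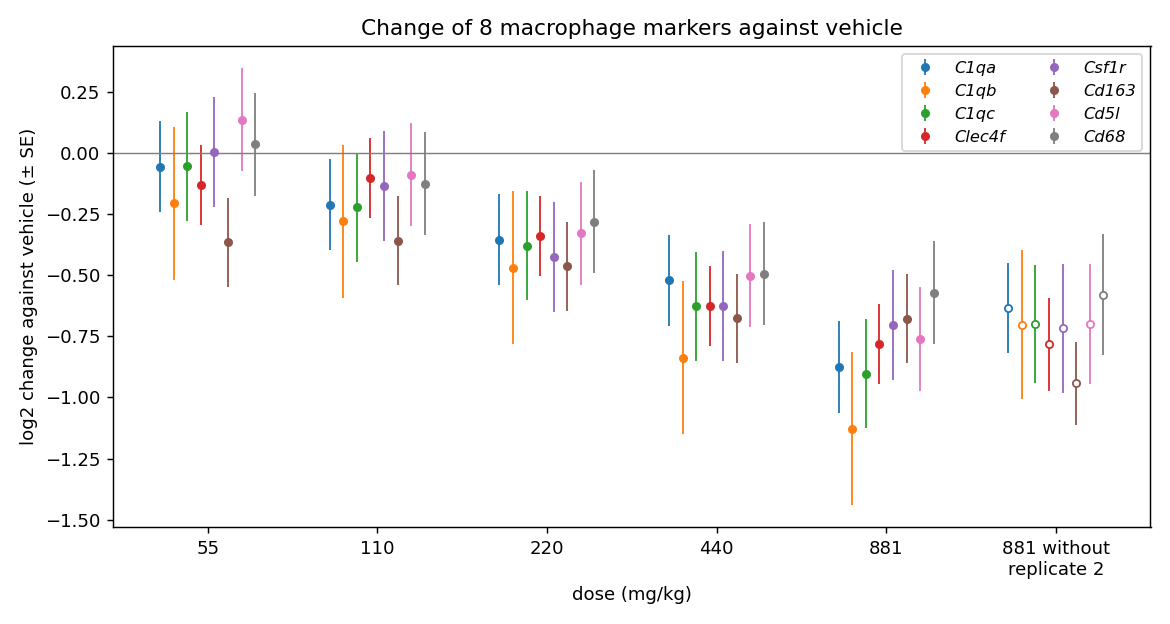
Log2 change against vehicle (± SE) of the 8 markers at each dose, with open points for 881 mg/kg without replicate 2. At 55 mg/kg the points lie on both sides of 0 (-0.36 for Cd163 to 0.14 for Cd5l), and at 440 and 881 mg/kg all are below it.

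Lower doses gave smaller differences. No member was called at 55, 110 or 220 mg/kg (limma adjusted p of 0.345 to 0.995, 0.339 to 0.885 and 0.196 to 0.556), where 0.879%, 1.24% and 1.18% of all genes fell. At an unadjusted p under 0.05 the members numbered 0, 0 and 1, the 1 being Cd163. The members' median change was -0.054 at 55, -0.17 at 110, -0.37 at 220, -0.63 at 440 and -0.77 at 881 mg/kg, while the median of all genes lay between -0.0046 and 0.013. At 440 mg/kg Clec4f and Cd163 fell, 2 of the 8 (4.28% of all genes), and the other 6 had changes of -0.49 (Cd68) to -0.84 (C1qb) with adjusted p between 0.0800 and 0.148. Without 881 mg/kg replicate 2, which enters the shared estimate of the spread, 4 of the 8 were called at 440 mg/kg (5.29% of all genes), and without 440 mg/kg replicate 3 none was (2.46% of all genes). Without vehicle replicate 2 or replicate 4 it was 1, Clec4f (3.37% and 3.0%).

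Groups with no overlap with vehicle appeared from 220 mg/kg. All arrays of 5 members lay below all vehicle arrays at 220 mg/kg (C1qa, C1qb, Cd163, Csf1r and Clec4f; 5.02% of all genes did so), of 5 at 440 mg/kg (C1qa, Cd163, Csf1r, Clec4f and Cd5l; 8.4%) and of 6 at 881 mg/kg (all but Cd163 and Cd5l; 8.31%). With the 2 remaining arrays of 881 mg/kg after leaving out replicate 2 it was 7 (all but Cd5l; 13.3% of all genes). None did so at 55 or 110 mg/kg. On each of the 9 arrays at 220, 440 and 881 mg/kg all 8 members were below their own vehicle mean. The share of all genes that did so was not determined. Of the marker lists counted further below, general leukocyte genes had 14 to 18 of 18 below theirs on these arrays. Stellate markers had 13 to 15 of 16, and hepatocyte markers 5 to 9 of 13. Antigen presentation genes had 9 to 11 of 11 below theirs, and endothelial markers 7 to 11 of 11.

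The trend over dose steps (0 for vehicle to 5 for 881 mg/kg) gave slopes of -0.12 (Cd68) to -0.22 (C1qb) per step, with limma adjusted p from 0.000355 (Clec4f) to 0.0109 (Cd68). With the 881 mg/kg group left out the trend called 7 of the 8 (5.26% of all genes), Cd68 having an adjusted p of 0.0718. With the 440 and 881 mg/kg groups both left out it called 1, Cd163 (adjusted p = 0.0458; 1.47% of all genes). Between 881 and 440 mg/kg no member was called (0.127% of all genes fell), and none had an unadjusted p under 0.05. The differences ran from -0.36 for C1qa (95% interval -0.79 to 0.082) to -0.0023 for Cd163 (-0.43 to 0.42), so these intervals hold no change as well as further lowering.

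Within a dose the markers were compared from array to array. Their spread within groups was 0.25 (Clec4f) to 0.49 (C1qb) as a pooled SD, at the 90.3 to 98.9 percentile of all genes, whose median was 0.14. C1qa, C1qb and C1qc deviated to the same side of their group mean on 16 of 20 arrays, and all 8 members did so on 9. The replicate 1 array was the highest of its group in 5 of 5 dosed groups for C1qb, C1qc, Cd68 and Csf1r, in 4 for C1qa, 3 for Clec4f and Cd5l, and 2 for Cd163. How often other sets of genes do so was not determined. Over all genes, same-numbered arrays correlated above 0.1 in 30 of 45 pairs. The array 55 mg/kg replicate 1 was high in 7 of the 8, with a median deviation of 0.42 from the vehicle means, and the lowest array was 881 mg/kg replicate 3, at -1.11. On 881 mg/kg replicate 2 the members did not move equally: a marker's deviation from its vehicle mean minus that of C1qa was -0.62 for C1qb, 0.81 for Cd68 and 1.21 for Cd163. With the beta-actin 3′ minus 5′ difference as a covariate, 6 of the 8 members were called at 881 mg/kg (6.31% of all genes).

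**Figure D3:**
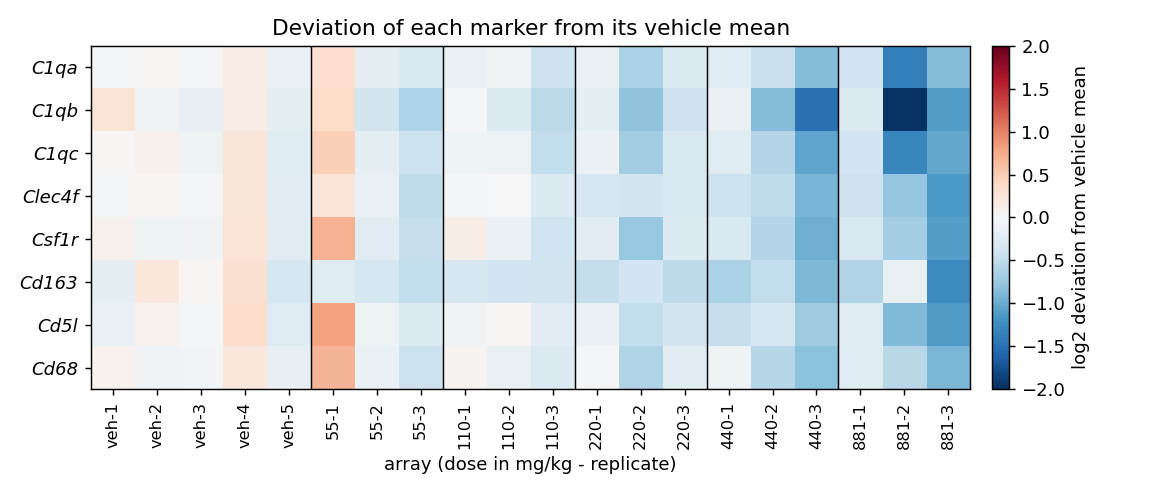
Log2 deviation of each of the 8 markers (down the page) from its own vehicle mean on each array (across, labelled dose and replicate), blue for lower and red for higher. The 55 mg/kg replicate 1 column is red for 7 of the 8 markers, and the 881 mg/kg replicate 3 column is blue for all 8.

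Genes with the profile most like the members' median deviation were sought over the 20 arrays by the root mean square of the difference, among 14209 other genes. The closest was Ccl6, a chemokine gene, at 0.0713 (a gene with no deviation at all would have 0.471). Then came the annexin Anxa3 (0.120), the lysosomal protease gene Ctss (0.122), the ficolin Fcna (0.123), the Fc receptor gamma chain Fcer1g (0.130), the integrin Itgb2 (0.137), Ifitm2 (0.154) and Gng11 (0.154). Ccl6 averaged 11.13 ± 0.45 at 881 mg/kg and 11.90 ± 0.18 in vehicle livers (SD, n = 3 and 5). Of these 8 genes, 6 were also among the nearest 8 without 881 mg/kg replicate 2. These likenesses are a description over arrays that share one normalization.

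Other genes of the macrophage were counted in lists chosen with earlier results of these data known. Changes of list genes are given with all arrays. Those that lost their call without 881 mg/kg replicate 2 have that adjusted p beside them. Of 33 genes called and named for the largest changes in their lists, 16 kept the call. Among 18 measured genes of Kupffer cells and resident macrophages, 7 fell and 1 rose at 881 mg/kg, with a median of -0.41 (5 fell and 1 rose without replicate 2). The largest were Mrc1, the mannose receptor (-0.91; 0.141 without replicate 2), Fcna (-0.90), the lysozyme gene Lyz2 (-0.69; 0.136) and Adgre1, which encodes F4/80 (-0.67, limma adjusted p = 0.0353). Their summed linear signal was 11559 to 14183 on the 881 mg/kg arrays and 13934 to 15515 on vehicle arrays. The gene that rose with all arrays was Slc40a1, by 0.58 (limma adjusted p = 0.000515). Cd14, a coreceptor for endotoxin, changed by 0.25 (adjusted p = 0.497). Of the 18, 4 fell at 440 mg/kg and 1, Slc40a1, rose (0.38, adjusted p = 0.0174).

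Of 9 measured transcription factors linked with macrophages, 2 fell and 1 rose. Irf8, a factor of monocyte development, fell by 0.67, and Id3 by 1.16, although Id3 without replicate 2 changed by only -0.41 (limma adjusted p = 0.353). Nr1h3, the liver X receptor, rose by 0.29 and was not called without that array (0.22, adjusted p = 0.199). Without it 1 of the 9 fell and none rose. Spi1, which encodes PU.1, had no named probe set. Of the ligands of CSF1R, Il34 fell by 0.34 (adjusted p = 0.0133; 0.0579 without replicate 2) and Csf1 changed by -0.13 (adjusted p = 0.466). Without replicate 2 Csf1 averaged 10.51 at 881 mg/kg, above its vehicle mean of 10.45. At 440 mg/kg neither ligand and no listed factor was called.

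Partners and regulators of C1q in complement were measured by 6 genes. None was called at 881 mg/kg (1 had an unadjusted p under 0.05), and their median was 0.051. None was called without replicate 2 either, where the median was 0.10. C1r and C1s, the proteases that join C1q in the first component, changed by -0.12 (limma adjusted p = 0.569) and -0.056 (adjusted p = 0.702). Without replicate 2 C1r averaged 12.86 at 881 mg/kg, above its vehicle mean of 12.78. C1s averaged 13.02 there, below its vehicle mean of 13.11. These 6 genes and the C1q chains were not tested against each other.

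Markers of other cells were measured on the same arrays. Among general leukocyte and myeloid signalling genes 6 of 18 fell at 881 mg/kg (median -0.46; 2 without replicate 2), led by Itgb2 (-0.64), Fcer1g (-0.57; adjusted p 0.0536 without replicate 2), Rac2 (-0.50; 0.0502) and Coro1a (-0.49; 0.168). Ptprc, which encodes CD45, changed by -0.50 (limma adjusted p = 0.128). Among 12 monocyte and neutrophil markers only Vcan fell (-0.29), with and without replicate 2, and their median was -0.096. Ccr2, the receptor of recruited monocytes, changed by 0.013 (adjusted p = 0.943). The summed signal of these 12 was 601 to 903 on 881 mg/kg arrays and 851 to 965 on vehicle arrays. Ccr2 averaged 4.13 at 881 mg/kg and 4.12 in vehicle livers, and Vcan 4.53 and 4.82. Both were below the array medians of 6.31 to 6.40, and at such low signal a lack of change says little.

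Antigen presentation genes, which dendritic cells and B cells also express, fell in 7 of 11 cases at 881 mg/kg (median -0.47; 4 without replicate 2). They were led by the class II genes RT1-Da (-1.17) and RT1-Db1 (-1.12), the invariant chain Cd74 (-0.97) and RT1-DMb (-0.67; adjusted p 0.05002 without replicate 2). Of lymphocyte markers 3 of 14 fell (Ms4a1 -0.41, Cd3d -0.31 and Cd79b -0.26). Without replicate 2 only Cd3d did (limma adjusted p 0.0531 for Ms4a1 and 0.118 for Cd79b). The 3 had low signal, with group means of 4.71 (Cd3d at 881 mg/kg) to 6.01 (Ms4a1 in vehicle livers), below the array medians.

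Stellate cell and fibroblast markers fell in 10 of 16 cases at 881 mg/kg, with a median of -0.63, led by Col3a1 (-0.91), Ecm1 (-0.89), Col1a2 (-0.83) and Lrat, the enzyme that stores vitamin A (-0.77). Without replicate 2 it was 5 of 16, and Col1a2 (-0.44, adjusted p = 0.205) and Lrat (-0.64, adjusted p = 0.0647) were not called. Endothelial markers fell in 3 of 11 cases (median -0.41; 1 without replicate 2): Kdr, a VEGF receptor (-0.62; adjusted p 0.139 without replicate 2), Pecam1 (-0.52; 0.0920) and Egfl7 (-0.33). Their summed signal was 5807 to 9548 on 881 mg/kg arrays and 8711 to 11381 on vehicle arrays. The stellate list summed to 5027 to 7158 on 881 mg/kg arrays and 8570 to 10869 on vehicle arrays. At 440 mg/kg 8 of 16 stellate markers, 5 of 11 endothelial markers and 2 of the 8 macrophage markers fell, where 4.28% of all genes did. The lists were not tested against each other. The Fc receptor gene Fcgr2b, which fell at 440 mg/kg, stands in both the endothelial and the general leukocyte list. Of 7 blood cell genes 2 fell, with and without replicate 2: Hbb, a haemoglobin chain (-2.23), and Alas2, the first enzyme of haem synthesis in red cells (-1.75).

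Of 13 hepatocyte markers, 1 rose (Apoa1, 0.34) and 2 fell (Cps1 -0.19, Serpina1 -0.16; 0 without replicate 2, with adjusted p of 0.155 and 0.143), and Alb, which encodes albumin, changed by 0.015 (limma adjusted p = 0.863). Their summed signal was 227341 to 240107 on 881 mg/kg arrays and 239226 to 241193 on vehicle arrays. Alb read 15.35 ± 0.0075 at 881 mg/kg and 15.34 ± 0.020 in vehicle livers (SD, n = 3 and 5). Whether signal this high can still register a change was not tested. Of 7 bile duct markers, Epcam rose (0.86 with all arrays) and none fell, with and without replicate 2.

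Among the lists at 440 mg/kg, 4 of 18 general leukocyte genes and 1 of 14 lymphocyte markers fell, where 4.28% of all genes did. No gene of the antigen presentation, monocyte and blood cell lists fell there. Over dose steps the trend called 8.81% of all genes lower. It called 14 of 18 general leukocyte genes lower, 9 of 18 further Kupffer cell and macrophage genes and 7 of 11 antigen presentation genes. The same held for 10 of 16 stellate, 6 of 11 endothelial, 6 of 14 lymphocyte and 3 of 7 blood cell markers. Of monocyte and neutrophil markers 2 of 12 were called lower, and of hepatocyte markers 2 of 13. No listed complement partner or bile duct marker was called lower. The part of cell numbers in the members' change was not tested, nor was that of the lower stellate, endothelial and leukocyte signal on the same arrays.

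**Figure D4:**
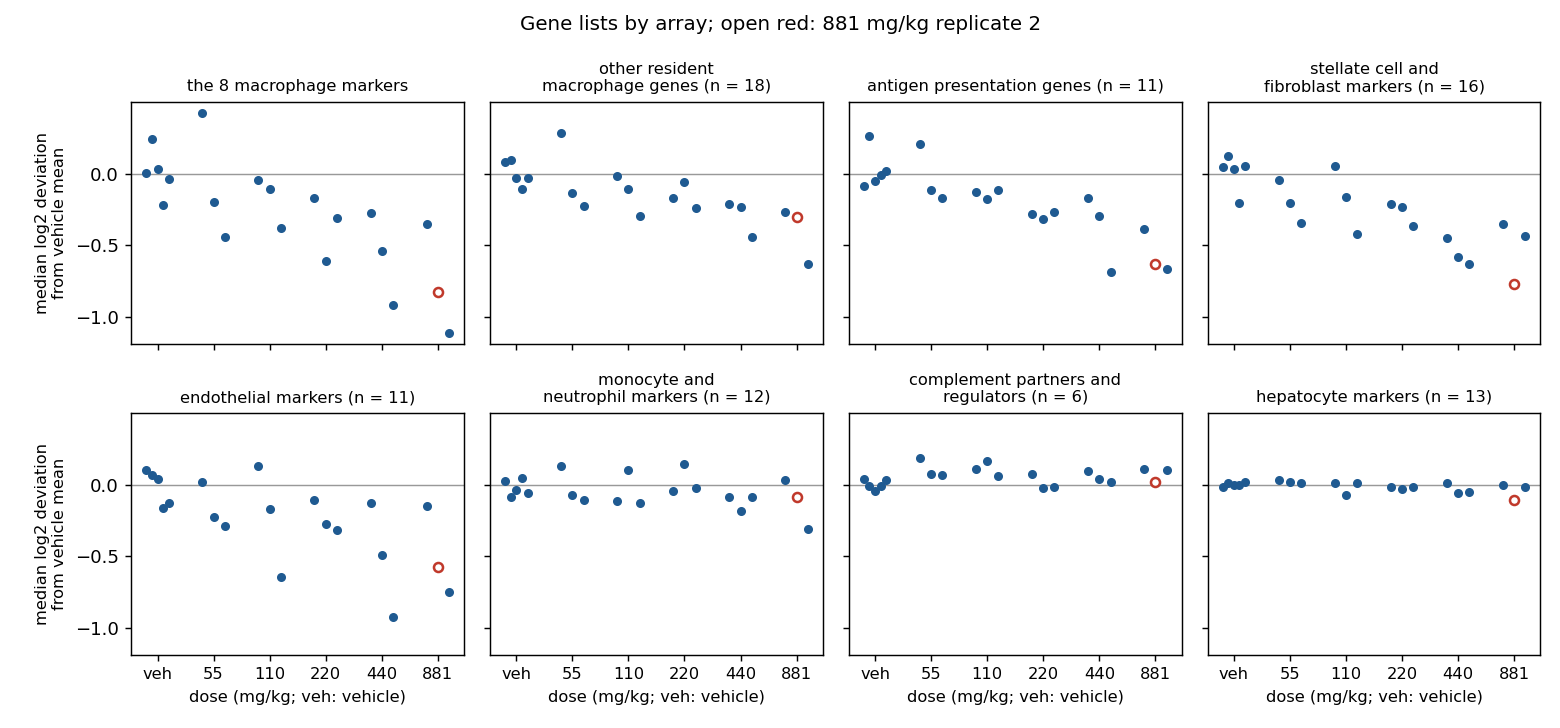
Median log2 deviation from the vehicle mean on each array (points) for the 8 macrophage markers and 7 other gene lists, by dose; the open red point is 881 mg/kg replicate 2 and all panels share 1 vertical scale. Macrophage, stellate and endothelial lists run below 0 at 440 and 881 mg/kg, while the hepatocyte list stays between -0.10 and -0.0054 on the 881 mg/kg arrays.

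**Figure D5:**
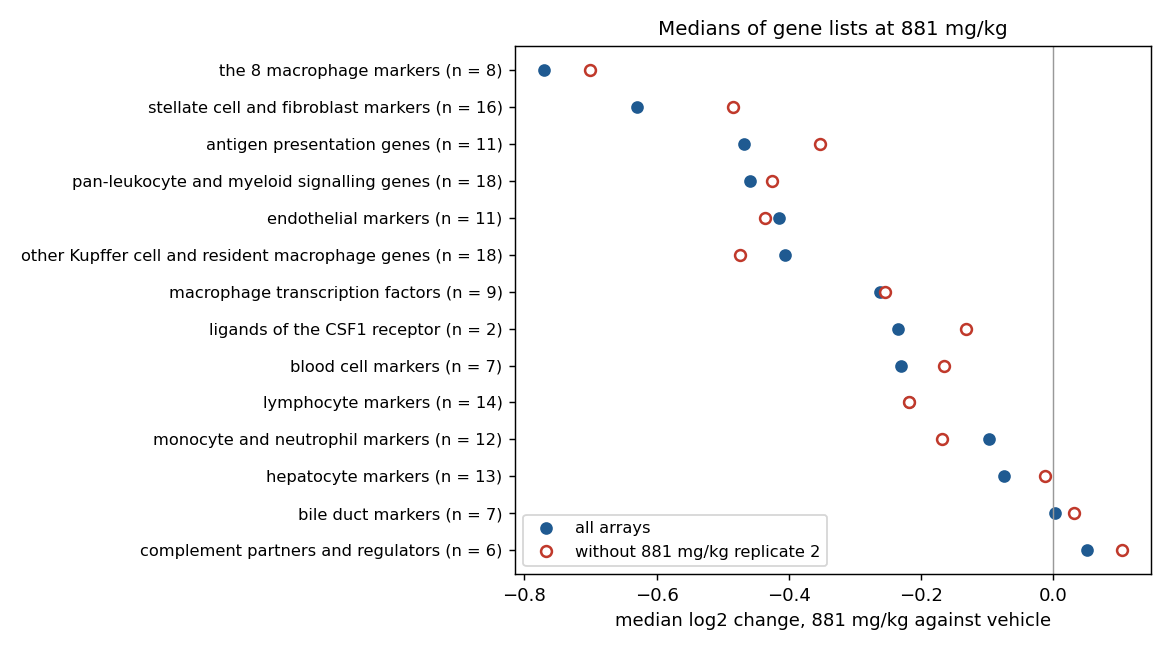
Median log2 change at 881 mg/kg against vehicle of the 8 macrophage markers and the 13 other gene lists (number of measured genes in brackets), with all arrays (filled) and without 881 mg/kg replicate 2 (open). The macrophage markers have the lowest median with all arrays, at -0.77.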

How the data were processed

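The authors deposited log2 values, 1 per probe set and array, made with RMA per the submitters' processing notes; the version of RMA is not given in the sources used. RMA normalizes arrays to each other, so a change in total RNA is removed. The log2 scale was read from the values. Of 31099 probe sets, 57 controls were set aside. The platform annotation gave 1 symbol to 20826 of the rest, several to 436 and none to 9780, and 14217 genes were each represented by the probe set with the highest mean. No 2 arrays shared over 0.0226% of values.

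limma 3.58.1 (lmFit, eBayes; R 4.3.3) fitted the 6 dose groups in 1 model with a shared spread, two-sided, with Benjamini-Hochberg adjustment over all genes; the trend used dose step as 1 numeric term. The fit was tested on simulated data. Tables and figures were made with Python 3.11.15, pandas 2.3.3, NumPy 2.4.6 and matplotlib 3.10.9. The members and lists were chosen with earlier results of these data known. The text names all members, up to 4 called genes per list with the largest change at 881 mg/kg, 12 genes named whatever their result, and the 8 genes most like the members. The labels give 440 mg/kg where the design text has 441 mg/kg. Alternatives were other probe set and array scaling, a signal filter, array weights, a beta-actin covariate, and leaving out each array; leaving out 881 mg/kg replicate 2 at lower doses, and whole top groups in the trend, was added after seeing the data.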

Additional observations from a re-analysis of the deposited data

How the results depend on the processing

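The trend called 8 of 8 members under each alternative to the fit or the arrays, 7 with the 881 mg/kg group left out, and 1 with the 440 and 881 mg/kg groups left out. No member was called at 55 or 110 mg/kg, or between 881 and 440 mg/kg, under any alternative run. At 220 mg/kg array weights and the beta-actin covariate each called 1, Cd163 (3.64% and 1.79% of all genes fell). At 440 mg/kg, against 2, array weights called 6 (7.34% of all genes fell, against 4.28%), only the groups compared 7 (5.37%) and the replicate block 5 (4.3%). Leaving out 1 array gave 0 to 4 there, with 340 to 752 of all 14217 genes lower. At 881 mg/kg, against 7, array weights called 4 (6.72%), and leaving out 1 array gave 3 to 8, with 559 to 954 of all 14217 genes lower. The replicate block called 8 (6.6%), adding Cd68 (change -0.55, adjusted p = 0.0234), which was also called with only the groups compared (0.0314) and without 881 mg/kg replicate 1 (-0.74, adjusted p = 0.0351). Same-numbered arrays correlated above 0.1 in 30 of 45 pairs (-0.13 to 0.35). No dosed group had all 3 of its pairs with vehicle above 0.1, so the numbers were not taken to pair arrays in those comparisons. The 3 pairs of 881 and 440 mg/kg were all above it (0.217 to 0.260), and there the block called 0, as without it.

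Of 1016 recomputed member changes, 933 kept direction and side of the threshold, 28 lost and 21 gained a call, and 34 reversed in sign, none of them called. Array weights reversed Cd68 (-0.11), Csf1r (-0.15) and Cd5l (-0.0222) at 55 mg/kg, and C1qb (0.22), C1qc (0.0022), Cd68 (0.056) and Csf1r (0.048) for 881 against 440 mg/kg; median centring reversed Cd163 there (0.020). Leaving out 1 array gave, at 55 mg/kg, -0.25 to 0.067 for C1qa, -0.49 to 0.0037 for C1qb, -0.32 to 0.14 for C1qc, -0.28 to 0.27 for Cd68, -0.34 to 0.23 for Csf1r, -0.32 to 0.055 for Clec4f and -0.20 to 0.35 for Cd5l. At 110 mg/kg it gave -0.26 to 0.0001 for Csf1r and -0.15 to 0.0015 for Cd5l. For 881 against 440 mg/kg it gave -0.71 to 0.14 for C1qb, -0.24 to 0.13 for Cd68, -0.27 to 0.30 for Cd163, -0.26 to 0.13 for Csf1r and -0.33 to 0.031 for Clec4f. The cause was not tested. The 3 arrays per dose limit the precision: the standard error of a member's change at 881 mg/kg was 0.16 to 0.31.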
